A study of Mus musculus with 904 samples.

Results

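The genes described here are the 5 listed for GABA synthesis, release, uptake and breakdown (Gad1, Gad2, Slc32a1, Slc6a11 and Abat), out of 32285 genes in the count table. They were taken by name, and their levels were compared over classes of single nuclei set by marker reads. All nuclei came from C57Bl/6J mice that had received, in young adulthood, an adeno-associated virus with the brain-penetrant PHP.eB capsid at 5e11 vector genomes per mouse. In every virus the DLX2.0 enhancer, which targets forebrain GABAergic neurons, drove a histone H2B reporter, and fluorescent nuclei were sorted 3 to 4 weeks later. RNA of each nucleus was amplified by SMART-Seq v4, a whole-transcript method without molecular identifiers.

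Sample titles name 16 constructs. Of these, 12 carry 1 of 6 RNA elements (BORG, 3xBORG, 3xsmOPT, U7snRNAOPT, 3xU7snRNAOPT and U7snRNAOPT-3'box) either before or after SYFP2-H2B. The other 4 carry none of the 6: SYFP2-P2A-3XFLAG-H2B without or with SIRLOIN after it, the modified reporter SYFP2-10aa-H2Bmod, and dTomato-H2B in place of SYFP2. There is no untreated group, and no label names an animal, so the nuclei of 1 construct were summed as 1 sample and each p-value measures only the spread between such sums, which may be technical. A second label names 16 viruses and crosses with the titles, 4 or 5 viruses to each construct. Whether titles or virus names assign the nuclei correctly was not tested, and results by construct rest on the titles.

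GABA is made from glutamate by glutamic acid decarboxylase, which has a pair of forms. The enzyme from Gad1 is found through the whole cell and supplies most basal GABA, and the enzyme from Gad2 is anchored to vesicles at axon terminals. Slc32a1 encodes the vesicular transporter that loads GABA and glycine into synaptic vesicles, Slc6a11 a plasma membrane GABA transporter known mainly from astrocytes, and Abat the mitochondrial transaminase that breaks GABA down. Both the projection neurons of the striatum and the interneurons of cortex and striatum release GABA, whereas cortical excitatory neurons release glutamate.

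Promoter sequences upstream of the start of transcription were available from RefSeq (GRCm38.p6, the build called mm10) for 4 of the 5 genes. They are shown because these genes differ in where they are expressed. Bases inside any annotated exon were left off, which leaves windows of different length. For Gad1 and Gad2 this took away the bases next to the RefSeq start sites, chr2:70562129 and chr2:22622327. Their windows therefore end short of the RefSeq start and lack the core promoter of that start. The Gad2 window does end next to the start of the GENCODE gene model, chr2:22622205. Capitals mark a match to 1 of 4 motifs searched on both strands: the TATA box TATAAA, the homeodomain core TAATTA bound by Dlx-type factors, the E-box CAGCTG and the GC box GGGCGG.
Gad1, chr2:70561879-70562041, plus strand: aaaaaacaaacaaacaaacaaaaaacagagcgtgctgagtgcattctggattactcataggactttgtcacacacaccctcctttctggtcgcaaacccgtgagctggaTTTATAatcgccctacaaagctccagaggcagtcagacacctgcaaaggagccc
Gad2, chr2:22622077-22622204, plus strand: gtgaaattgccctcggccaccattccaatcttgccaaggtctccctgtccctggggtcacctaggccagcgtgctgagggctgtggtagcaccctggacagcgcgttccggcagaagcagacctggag
Slc32a1, chr2:158610508-158610757, plus strand: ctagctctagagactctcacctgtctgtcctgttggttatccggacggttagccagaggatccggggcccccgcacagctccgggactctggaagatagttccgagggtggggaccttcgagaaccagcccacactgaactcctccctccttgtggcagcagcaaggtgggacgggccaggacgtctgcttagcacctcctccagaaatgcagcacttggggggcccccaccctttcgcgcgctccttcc
Slc6a11, chr6:114130991-114131240, plus strand: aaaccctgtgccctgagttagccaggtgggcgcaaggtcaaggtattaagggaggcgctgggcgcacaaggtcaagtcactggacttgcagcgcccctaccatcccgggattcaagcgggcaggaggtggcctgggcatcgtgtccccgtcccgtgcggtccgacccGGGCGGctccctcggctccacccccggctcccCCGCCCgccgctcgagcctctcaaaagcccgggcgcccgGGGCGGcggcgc

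The Gad1 window of 163 bases holds 1 TATA box on the minus strand, a motif present in 7.78% of 32851 promoter windows of that length. The Gad2 window of 128 bases and the Slc32a1 window of 250 bases hold none of the 4 motifs. Slc6a11 has 3 GC boxes in 250 bases, and 32.7% of windows of that length hold at least 1. GC content was 46.6% for Gad1, 62.5% for Gad2, 62.4% for Slc32a1 and 71.2% for Slc6a11. No Dlx-type core occurred in any of the 4 windows. A match describes the letters alone, and the absence of one says nothing about a factor. The bases next to the RefSeq start of Gad1 and Gad2 were not searched.

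In the gene models (mm10, GENCODE M21), Gad1 (ENSMUSG00000070880) lies at chr2:70553072-70602014, Gad2 (ENSMUSG00000026787) at chr2:22622205-22693874 and Slc32a1 (ENSMUSG00000037771) at chr2:158610767-158615748. Slc6a11 (ENSMUSG00000030307) lies at chr6:114131241-114249952 and Abat (ENSMUSG00000057880) at chr16:8513429-8621568, all on the plus strand. The Gad1 window lies inside a longer annotated Gad1 transcript. Antisense genes overlap Gad1 (Gad1os, 136 reads in 8 nuclei) and Slc32a1 (Gm14205, 17 reads in 4 nuclei). The library kit does not mark strand, so reads of these overlaps cannot be assigned to either partner.

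Of 904 nuclei, 835 had at least 1000 genes and 10000 reads, with 30023 to 719419 reads and a median of 260274. No pair of libraries was identical. A nucleus was called striatal projection when it had at least 20 CPM (reads per 1000000 reads of the nucleus) of Rgs9 and under 20 of Slc17a7, Sst with at least 100 CPM of Sst, and Pvalb with at least 20 CPM of Pvalb and under 100 of Sst. At least 50 CPM of Slc17a7 defined the excitatory class, and at least 20 CPM of Aqp4 or of Mog the Aqp4 (astrocyte) and Mog (oligodendrocyte) classes. This gave 214 striatal projection, 114 Sst, 92 Pvalb, 134 excitatory, 35 Aqp4 and 37 Mog nuclei, with 92 in more than 1 class and 117 in none. Sums of at least 3 nuclei existed for 14, 15, 13, 14, 8 and 6 constructs respectively.

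All labels give primary visual cortex as the tissue, and the design text also names striatum and anterior lateral motor cortex. The summed level of 10 striatal projection markers was 6794 to 14855 CPM in the striatal class, against 194 to 1384 CPM in the Sst class and 239 to 2975 CPM in the excitatory class. The 10 markers do not include the rule gene Rgs9. Excitatory cortical markers summed to 0 to 50.998 CPM in the striatal class, a sum that the rule holds down in part through Slc17a7. The region of the Sst and Pvalb nuclei cannot be told apart from these labels. Library names place the nuclei in 3 library pools, and pool S40317 held no striatal and no Mog nuclei.

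Gad1 and Gad2 had reads in most GABAergic nuclei and in few others. Gad1 was most often seen in the Pvalb class, with reads in 96.7% of nuclei (89 of 92, exact Clopper-Pearson 95% interval 90.8 to 99.3). The share was 64.02% (57.2 to 70.4) in the striatal class and 68.4% (59.1 to 76.8) in the Sst class. It was 5.97% (2.61 to 11.4) in excitatory, 8.57% (1.80 to 23.1) in Aqp4 and 8.11% (1.70 to 21.9) in Mog nuclei. These intervals cover counting error only, and the shares were not tested over constructs.

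Thinning each nucleus to 30000 reads left the Gad1 shares at 94.6% in Pvalb, 65.5% in Sst, 58.1% in striatal and 4.45% in excitatory nuclei, in the same order as before. Median depths were 251100, 253820, 261951 and 233164 reads for these 4 classes. Gad2 reads were found in 67.4% of Pvalb, 62.3% of Sst and 58.9% of striatal nuclei, which is a narrower range than for Gad1, and in 3.73% of excitatory nuclei. In the Pvalb class 62 of 92 nuclei had reads of both enzymes, 27 of Gad1 alone and 0 of Gad2 alone. In the striatal class 81 of 214 had both, 56 Gad1 alone, 45 Gad2 alone and 32 neither.

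In the 3 GABAergic classes Slc32a1 was seen less often than either enzyme. Its gene spans 4982 bases, against 48943 for Gad1 and 71670 for Gad2, and the part of length in these shares was not tested. Slc32a1 had reads in 48.2% of Sst (38.8 to 57.8), 47.8% of Pvalb (37.3 to 58.5) and 21.96% of striatal nuclei (16.6 to 28.1). In excitatory nuclei the share was 2.99% (0.819 to 7.47). Among nuclei with reads of Gad1 or Gad2, Slc32a1 was present in 51.5% of Sst, 48.3% of Pvalb and 23.6% of striatal nuclei. After thinning to 30000 reads its shares were 33.9%, 31.7% and 11.6%. In Mog nuclei Slc32a1 had reads in 0 of 37, which by a floor of 3 nuclei allows a share of nuclei with reads of up to 8.11% (exact interval up to 9.49%) and does not limit the share that express it.

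Slc6a11 followed another pattern, with reads in 51.4% of Aqp4 nuclei (33.99 to 68.6) and in 0.877% to 2.17% of the 4 neuron classes. No Mog nucleus had any. Abat, the breakdown enzyme, was spread more widely, with reads in 45.8% of striatal, 46.5% of Sst, 44.6% of Pvalb, 31.4% of Aqp4, 20.1% of excitatory and 2.703% of Mog nuclei.

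**Figure D1:**
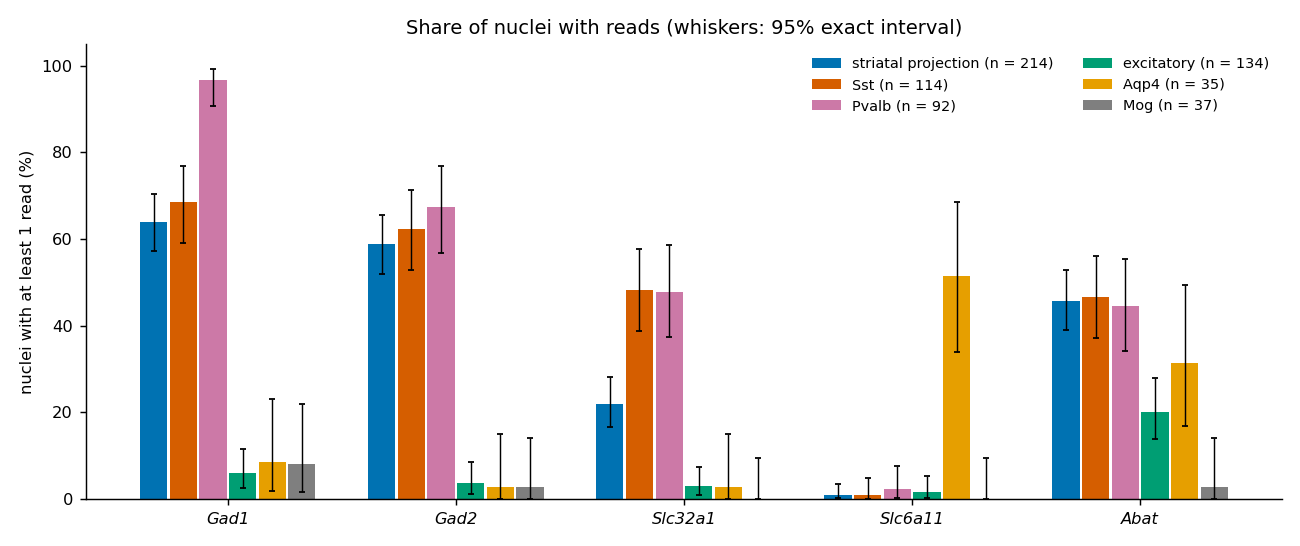
Share of nuclei (%) with reads of each of the 5 genes in the 6 classes, with whiskers for the exact 95% interval, which covers counting error only. Gad1 reaches 96.7% in the Pvalb class, and Slc6a11 passes 5% in the Aqp4 class alone, at 51.4%.

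Levels over constructs gave the same picture in CPM of the summed reads. Gad1 was at 1173 ± 779 CPM in Pvalb (SD, n = 13 constructs; lowest 154, median 831, highest 2988), 508 ± 268 in Sst (n = 15; 288, 477, 1412) and 360 ± 172 in striatal projection sums (n = 14; 149, 342, 780 CPM). It was at 25.4 ± 44.9 CPM in excitatory sums (n = 14; 0, 0.833, 125), of which 6 held none. The 3 GABAergic classes overlap one another, and none of their sums falls to the highest excitatory sum of 125 CPM. In Aqp4 sums Gad1 was at 116 ± 222 CPM (n = 8), all of it from 2 constructs at 350 and 574 CPM, and in Mog sums from 1 of 6 constructs, at 183 CPM.

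Gad2 lay at 420 ± 498 CPM in Pvalb (lowest 0, median 254, highest 1909), 405 ± 365 in Sst (84.9, 329, 1609) and 305 ± 157 in striatal sums (82.7, 285, 701). In excitatory sums it was at 17.6 ± 56.4 CPM, with 10 of 14 at 0 and 531 of the 615 reads in the sum of SYFP2-H2B-3xU7snRNAOPT. The ranges of the 3 GABAergic classes overlap almost wholly. Aqp4 sums had Gad2 in 1 of 8 (108 CPM), and all 6 Mog sums were at 0, although 140 reads were present in 1 Mog nucleus of a construct too small to be summed.

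Slc32a1, the vesicular carrier, stood at 46.1 ± 31.2 CPM in Sst (6.33, 42.1, 136), 34.2 ± 33.4 in Pvalb (0, 25.3, 113) and 7.78 ± 6.45 in striatal sums (0, 6.65, 19.8). Excitatory sums were at 4.58 ± 12.97 CPM, with 10 of 14 at 0 and a highest value of 48.4. Striatal sums lie within the range of the excitatory ones for this gene, and the highest striatal sum is below the median Sst and Pvalb sums. 

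Abat stood at 147 ± 84.8 CPM in striatal (12.9, 126, 329), 147 ± 91.6 in Sst (21.6, 138, 319) and 186 ± 98.3 in Pvalb sums (32.3, 196, 322). It was at 36.9 ± 71.1 CPM in excitatory (0, 19.9, 279), 131 ± 97.4 in Aqp4 (0, 160, 235) and 41.7 ± 102 in Mog sums, where 5 of 6 held none. The ranges of these classes overlap for this gene, the excitatory range included.

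Slc6a11 was at 81.1 ± 88.6 CPM in Aqp4 sums. The 8 Aqp4 sums ran from 0 through a median of 45.1 to 269 CPM, with 7 above 0. Striatal sums were at 0 in 13 of 14 constructs and at 61.3 CPM in SYFP2-H2B-3xsmOPT. The Sst, Pvalb and excitatory sums were at 0 in 14 of 15, 11 of 13 and 13 of 14, with a highest value of 16.8 CPM. No class other than Aqp4 had Slc6a11 in more than 2 sums.

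Genes can be compared with each other per length only. Per kilobase of exon, Gad1 and Gad2 were close in striatal sums (47.1 and 51.8 CPM per kb) and in Sst sums (66.5 and 68.97). In the Pvalb class Gad1 was at 154 and Gad2 at 71.4 CPM per kb. Slc32a1 was at 2.78, 16.5 and 12.2 CPM per kb in striatal, Sst and Pvalb sums, and Abat at 18.97, 18.96 and 24.005. Reads in nuclei can fall in introns, and how the counting treated them is not given in the sources used here. Per kilobase of the whole gene, Gad1 and Gad2 were at 7.35 and 4.25 CPM in striatal sums. They were at 10.4 and 5.65 in Sst and at 23.96 and 5.85 in Pvalb sums. Slc32a1 was at 1.56, 9.25 and 6.86 CPM on this scale, below Gad2 in striatal sums and above it in Sst and Pvalb sums. The closeness of Gad1 and Gad2 thus holds per exon length only, and which length applies was not tested.

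**Figure D2:**
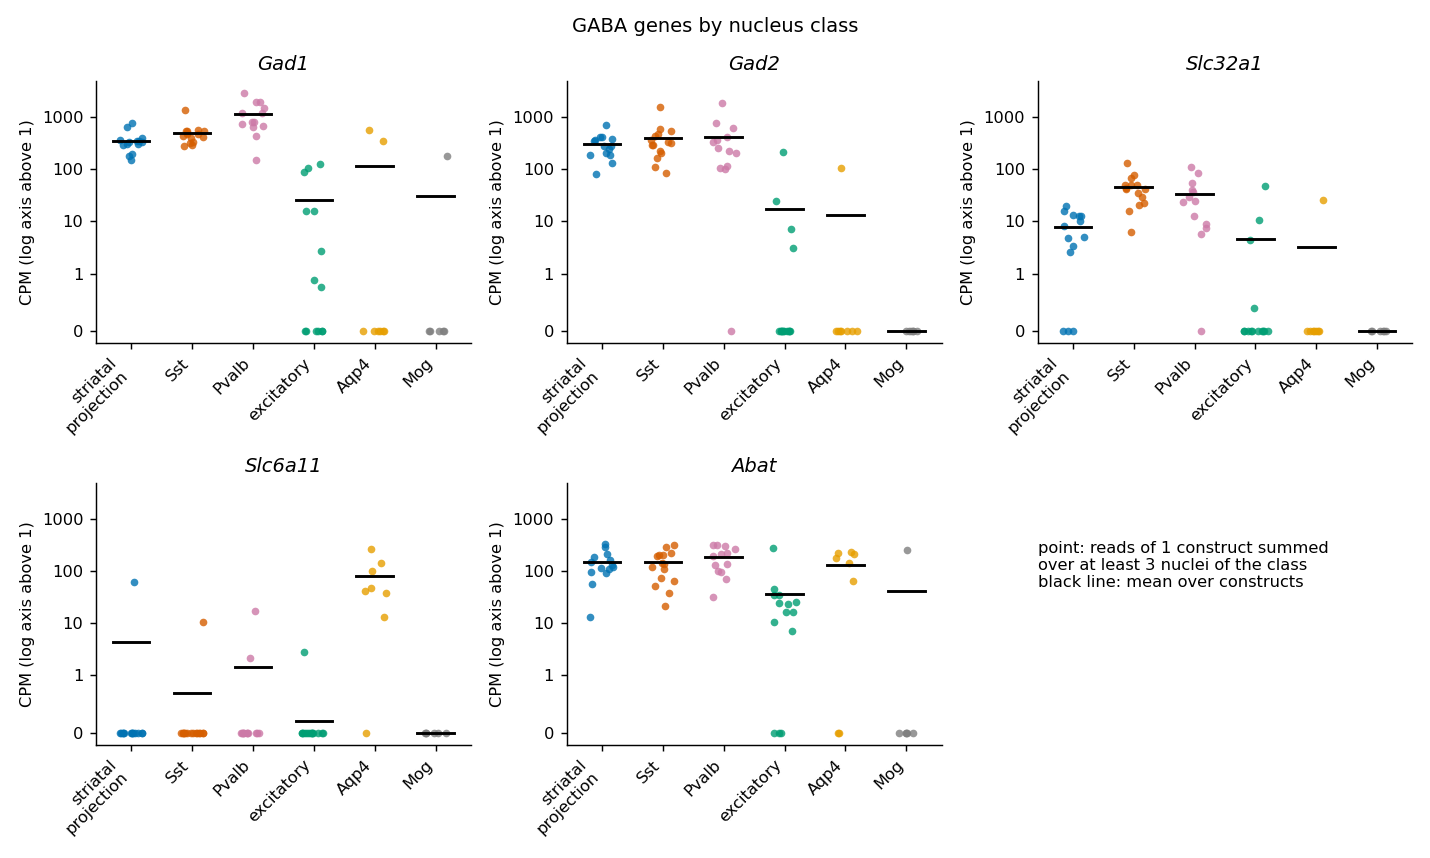
Level of each gene (CPM of summed reads, log axis above 1) in each class, 1 point per construct sum of at least 3 nuclei, with a black line at the mean over constructs. The excitatory sums of Gad1 reach 125 CPM, and every striatal, Sst and Pvalb sum lies above that.

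Each class was set against the excitatory class in 1 edgeR quasi-likelihood fit over 13749 genes, with construct as a block and Benjamini-Hochberg adjustment over all genes. In this fit 944 genes, or 6.87%, were called between striatal projection and excitatory sums at an adjusted p under 0.05. In the Sst comparison 6.47% were called and in the Pvalb comparison 7.88%. All these comparisons share the excitatory sums, so their values are given side by side and are not independent. The median log2 difference of all genes was -0.30, -0.33 and -0.41. A fitted log2 difference weighs constructs within the block and is larger here than the ratio of plain means.

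Of the 5 genes, 3 were higher in the striatal class and 4 each in the Sst and Pvalb classes, and none was lower. Gad1 was higher by 5.73 ± 0.82 (SE, log2) in striatal sums, where its mean was 14.1 times the excitatory mean (edgeR adjusted p = 2.1e-07), in 12 of 12 constructs with both classes. The difference was 5.94 ± 0.82 in Sst (19.98 times, adjusted p = 4.96e-08, 13 of 13) and 6.88 ± 0.84 in Pvalb sums (46.1 times, adjusted p = 8.19e-10, 12 of 12). Gad2 was higher by 7.48 ± 0.79 in striatal sums (17.3 times, adjusted p = 2.68e-11, 12 of 12). It was higher by 7.30 ± 0.78 in Sst (22.98 times, adjusted p = 1.73e-11, 13 of 13) and by 6.95 ± 0.78 in Pvalb sums (23.8 times, adjusted p = 1.45e-10, 11 of 12). Both decarboxylases passed the test in all 3 GABAergic classes.

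Slc32a1 was higher in Sst (3.92 ± 0.90, 10.1 times, adjusted p = 0.00177, 13 of 13) and in Pvalb sums (3.70 ± 0.96, 7.47 times, adjusted p = 0.00566, 11 of 12). In striatal sums its difference was 1.89 ± 0.97 (adjusted p = 0.291, 8 of 12), which did not pass, although DESeq2 gave 3.78 (adjusted p = 0.00467). Abat was higher in all 3: by 2.96 ± 0.74 in striatal (adjusted p = 0.00465, 10 of 12), 2.47 ± 0.70 in Sst (adjusted p = 0.0154, 13 of 13) and 2.92 ± 0.73 in Pvalb sums (adjusted p = 0.00396, 12 of 12). Its means were 3.98, 3.98 and 5.04 times the excitatory mean. Slc6a11 had reads in at most 2 sums on either side, so no fold is given, and its adjusted p was 0.494, 0.771 and 0.646.

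Library pool moved with these differences. In pool S40317, 54 excitatory nuclei held Gad1 at 0.275 CPM and Gad2 at 0, against 66.5 and 87.3 CPM in the 33 excitatory nuclei of pool S40327. The 7 Sst nuclei of pool S40317 had 1516 CPM of Gad1, 1734 of Gad2 and 151 of Slc32a1. Sst nuclei of pools S40325 and S40327 had 358 and 436, 150 and 361, and 27.7 and 38.7 CPM. Abat, at 124 CPM, lay between them (106 and 178). Gad1 in Pvalb nuclei was at 2141 CPM in pool S40317, against 927 and 906. Pool S40317 enters the Sst and Pvalb levels but not the striatal ones. Within pool S40325, Gad1 was higher by 3.49, 3.80 and 4.77 and Gad2 by 7.67, 6.78 and 7.66 in striatal, Sst and Pvalb sums, all passing the edgeR test (adjusted p at most 0.00805). Within pool S40327 the same differences were 3.32, 3.35 and 4.52 for Gad1, none passing (adjusted p = 0.393, 0.342 and 0.166). For Gad2 they were 5.05 and 4.91, which passed in striatal and Sst sums (adjusted p = 0.0410 and 0.0411), and 3.53 in Pvalb sums, which did not (adjusted p = 0.378). Slc32a1 did not pass without pool S40317 in Sst (2.85, adjusted p = 0.0935) or Pvalb sums (2.40, adjusted p = 0.239), and Abat did not in Sst sums (2.53, adjusted p = 0.084). Within pools S40325 and S40327 Abat was at 3.95 and 1.92 in striatal sums, of which the first passed (adjusted p = 0.0201 and 0.764). In Sst and Pvalb sums Abat passed in neither pool, at 2.38 and 2.15 in S40325 (adjusted p = 0.341 and 0.435) and 2.65 and 3.39 in S40327 (0.517 and 0.439).

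Of 10 listed transcription factors of forebrain GABAergic cells 9 were tested: 5 were higher in striatal, 8 in Sst and 7 in Pvalb sums, with Meis2 lower in the last 2, where 6.87%, 6.47% and 7.88% of all genes passed. Dlx6, a homeodomain factor, was at 51.8 ± 21.7 CPM in striatal and 1.88 ± 4.59 CPM in excitatory sums (5.52 ± 0.91, adjusted p = 8.03e-06). Lhx6, the factor of medial interneurons, was at 222 ± 205 CPM in Sst and 81.01 ± 52.6 in Pvalb sums and at 0 in all excitatory sums (adjusted p = 1.9e-08 and 1.15e-06). Dlx1, which was also at 0 in excitatory sums, stood at 108 ± 86.5 and 82.3 ± 53.4 CPM (adjusted p = 9.74e-08 and 1.5e-07).

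Of 14 other enzymes and carriers of GABA and glutamine metabolism, 0 passed by edgeR in each of the 3 comparisons, in which 6.87%, 6.47% and 7.88% of all genes did. Of 7 tested amino acid carriers, Slc1a2, the main glutamate transporter of astrocytes, was the 1 that passed, and it was lower. It stood at 419 ± 188 CPM in excitatory sums and at 92.3 ± 282, 17.8 ± 31.1 and 15.1 ± 27.1 CPM in striatal, Sst and Pvalb sums (adjusted p = 0.000239, 1.98e-06 and 9.01e-07). Slc17a6, a vesicular glutamate transporter, had 39.9 ± 44.7 CPM in excitatory sums, 4.56 ± 17.7 in Sst sums and 0 reads in striatal and Pvalb sums (adjusted p = 0.0265, 0.00115 and 0.00118). None of the 4 genes that serve the palmitoylation and vesicle anchoring of the Gad2 enzyme passed.

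**Figure D3:**
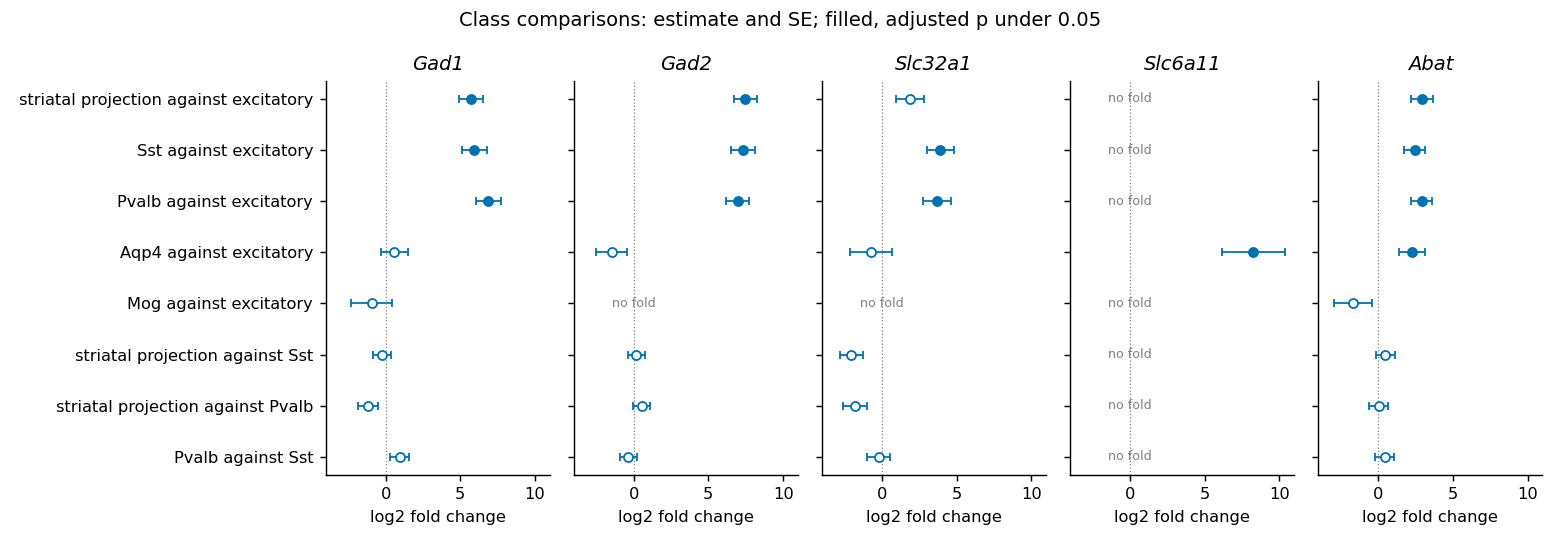
Fitted log2 difference (± SE) of each gene between classes; filled points passed edgeR at an adjusted p under 0.05, and "no fold" marks genes at 0 on 1 side or with reads in fewer than 3 sums on both sides. Gad1 and Gad2 lie between 5.73 and 7.48 in the 3 GABAergic classes against excitatory, and no point passes between GABAergic classes.

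Slc6a11 and Abat were higher in Aqp4 than in excitatory sums, and in Mog sums none of the 5 genes was higher and Gad2 was lower. Aqp4 sums differed from excitatory sums in 41.1% of genes and Mog sums in 39.6%, with a median log2 difference of all genes of -2.63 and -3.08, so a difference near 0 lies above most genes. Slc6a11 was higher in Aqp4 sums by 8.25 ± 2.10 (776 reads against 7, adjusted p = 0.00141, in 5 of 6 constructs with both). Abat was higher by 2.29 ± 0.86 (3.56 times, adjusted p = 0.0265, 4 of 6). Gad1 (0.60 ± 0.92), Gad2 (-1.47 ± 1.05) and Slc32a1 (-0.72 ± 1.41) did not pass, with edgeR adjusted p = 0.607, 0.248 and 0.692.

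The 6 astrocyte markers, which include the rule gene Aqp4, summed to 5406 to 13465 CPM in the Aqp4 sums. Of the other cell types, oligodendrocyte markers summed to 0 to 3789 CPM there (median 1503), excitatory cortical markers to 23.3 to 1119, striatal markers to 35.6 to 1651, medial interneuron markers to 0 to 347, Pvalb-type markers to 0 to 333 and caudal interneuron markers to 0 to 245 CPM. The part of these other markers in the Aqp4 levels was not tested. All 7 excitatory Slc6a11 reads were in pool S40317. Without that pool the excitatory sums were at 0 and Slc6a11 did not pass (adjusted p = 0.0897), nor did it within pool S40327 (adjusted p = 0.535), where its pooled level was 76.3 CPM in Aqp4 nuclei and 0 in excitatory nuclei. Abat was at 2.81 and 2.76 there and did not pass (adjusted p = 0.0627 and 0.242). Abat also failed when 1 of 4 constructs was left out: 1.95 without 3xBORG-SYFP2-H2B (adjusted p = 0.0865), 2.01 without SYFP2-10aa-H2Bmod (0.0601), 2.13 without SYFP2-H2B-3xsmOPT (0.0594) and 1.74 without SYFP2-H2B-3xU7snRNAOPT (0.122).

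In Mog sums Gad2 was at least 64.5-fold lower than in excitatory sums (0 reads against 615, floor of 3 reads over the class, edgeR adjusted p = 0.00521). The 140 reads of the construct too small to be summed are not in this value: over all nuclei of each class Gad2 was at 11.3 CPM in Mog and 18.5 CPM in excitatory nuclei. It was the 1 gene of the 5 that passed, and 0 of the 5 did without SYFP2-H2B-3xU7snRNAOPT, the construct with most excitatory Gad2 reads. Slc32a1, at least 12.1-fold lower, did not pass (adjusted p = 0.0516). Gad1 (-0.93 ± 1.36, adjusted p = 0.596) and Abat (-1.69 ± 1.27, adjusted p = 0.279) each had reads in a single Mog sum. With that sum left out, all Mog sums were at 0 and each passed as lower (edgeR adjusted p = 0.001 for Gad1 without SYFP2-H2B-U7snRNAOPT and 0.000395 for Abat without SYFP2-H2B-BORG). These passes rest on removing the only Mog sum with reads. Of 475 Gad1 reads in Mog nuclei, 206 were in that sum. Over all nuclei of each class the direction was the opposite. Gad1 was at 38.5 CPM in Mog and 21.6 CPM in excitatory nuclei, and Abat at 34.7 and 26.4 CPM.

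Glul, glutamine synthetase, was at 951 ± 825 CPM in Aqp4 and 518 ± 210 in Mog sums against 29.2 ± 41.7 in excitatory sums (4.70 ± 0.83 and 4.77 ± 0.91, adjusted p = 3.78e-06 and 1.66e-05). In the metabolism list 3 of 14 were higher and 7 lower in Aqp4 sums, and 1 was higher and 6 lower in Mog sums, where 41.1% and 39.6% of all genes passed. The glutamate transporter Slc1a3 reached 4652 ± 1492 CPM in Aqp4 sums (9.38 ± 1.33, adjusted p = 1.74e-08).

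Among the GABAergic classes none of the 5 genes passed the test, although 11.1% of genes did between striatal and Sst sums, 11.5% between striatal and Pvalb sums and 1.97% between Pvalb and Sst sums. The largest of these differences was that of Slc32a1, lower in striatal than in Sst sums by 2.04 ± 0.75 on the log2 scale in 13 of 13 constructs (adjusted p = 0.0633). It passed under 6 alternatives, among them nuclei with at least 2000 genes (-1.73, adjusted p = 0.0279) and a fit of these classes alone (-2.09, adjusted p = 0.0116). Within pools S40325 and S40327 it was -2.07 and -2.05 (adjusted p = 0.317 and 0.439). Against Pvalb sums Slc32a1 differed by -1.82 ± 0.80 (adjusted p = 0.134), with the striatal sum higher in 1 of 11 constructs.

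Gad1 was lower in striatal than in Pvalb sums by 1.15 ± 0.67, higher in 1 of 11 constructs (adjusted p = 0.308). With the test limited to these classes the difference of -1.14 passed (adjusted p = 0.0101), as did -1.27 in nuclei with at least 2000 genes (adjusted p = 0.0159). Within pools S40325 and S40327 it was -1.27 and -1.19 (adjusted p = 0.257 and 0.775). Between Pvalb and Sst sums Gad1 was at 0.94 ± 0.65 (10 of 12, adjusted p = 0.644). Gad2 differed by 0.18 ± 0.55 between striatal and Sst, 0.53 ± 0.59 between striatal and Pvalb and -0.35 ± 0.57 between Pvalb and Sst sums (adjusted p = 0.915, 0.663 and 0.933). Abat was at 0.49, 0.04 and 0.45 in the same comparisons (adjusted p = 0.741, 0.99 and 0.903), and Slc32a1 at -0.22 ± 0.76 between Pvalb and Sst sums (adjusted p = 0.989). In all, 0 of the 5 genes were called here by edgeR. DESeq2 also called 0 of the 5, while it called 1044 of all genes for Pvalb against Sst.

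Between striatal and Sst sums 0 of 14 metabolism genes and 1 of 7 carriers passed, and between striatal and Pvalb sums 1 of 14 and 2 of 7, against 11.1% and 11.5% of all genes. Slc6a6, the taurine transporter, was higher in striatal sums at 317 ± 128 CPM, against 101 ± 62.9 in Sst (1.71 ± 0.55, adjusted p = 0.0292) and 117 ± 75.7 in Pvalb sums (1.65 ± 0.58, adjusted p = 0.0492). Slc38a2, a neutral amino acid carrier that takes up glutamine, was lower in striatal (143 ± 69.5) than in Pvalb sums (407 ± 148 CPM, -1.31 ± 0.45, adjusted p = 0.0405). Aldh9a1, an aldehyde dehydrogenase that can form GABA from putrescine, was lower too (11.2 ± 33.7 against 56.1 ± 64.8 CPM, adjusted p = 0.0435). Of 9 tested transcription factors 1 was higher and 3 lower in striatal sums in each comparison: Meis2 was at 623 ± 198 CPM in striatal and 0.863 ± 3.34 CPM in Sst sums (adjusted p = 2.27e-13), and Lhx6 at 1.28 ± 4.80 and 222 ± 205 CPM (adjusted p = 5.79e-08).

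The ratio of Gad1 to Gad2 reads had its lowest mean in striatal and its highest in Pvalb sums, but no pair of classes passed after adjustment. Its geometric mean was 1.22 in striatal (log2 0.29 ± 0.93 SD, n = 14), 1.49 in Sst (0.58 ± 0.85, n = 15) and 4.89 in Pvalb sums (2.29 ± 2.47, n = 13). Per exon length these are 0.94, 1.15 and 3.76, values that would differ per length of the whole gene. The ratio exceeded 1 in 7 of 14 striatal, 12 of 15 Sst and 12 of 13 Pvalb sums, so the classes overlap. In striatal sums it ran from 0.434 to 4.09 (median 1.03), in Sst sums from 0.50 to 5.89 (1.42) and in Pvalb sums from 0.607 to 747 (3.96). The value of 747 comes from SYFP2-H2B-3xsmOPT, whose 4 Pvalb nuclei had 373 Gad1 reads and 0 Gad2 reads, so that it is set by the 0.5 reads added. Without it the Pvalb geometric mean was 3.22 (log2 1.68, n = 12).

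Paired over constructs in exact two-sided permutation tests, with 3 pairs of classes adjusted together, the log2 ratio was 1.90 ± 0.91 (SE) lower in striatal than in Pvalb sums (-1.90, higher in 3 of 11, exact p = 0.0352, adjusted p = 0.0696). It was 1.73 ± 0.83 higher in Pvalb than in Sst sums (10 of 12, exact p = 0.0464, adjusted p = 0.0696). Striatal and Sst sums differed by -0.27 ± 0.27 (higher in 4 of 13, exact p = 0.334). None of the 3 passed at 0.05 after adjustment. Without SYFP2-H2B-3xsmOPT the first pair of differences fell to -1.13 and 1.09 (permutation adjusted p = 0.139 for both). Without U7snRNAOPT-SYFP2-H2B they were -2.30 and 2.19 and passed (0.0117), and without SYFP2-P2A-3XFLAG-H2B -2.11 and 2.005 (0.0469).

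The reads of whole classes gave a ratio of 1.24 in striatal, 1.29 in Sst and 2.97 in Pvalb nuclei. In Pvalb nuclei it was 2.29, 3.03 and 4.44 in pools S40317, S40325 and S40327, and in striatal nuclei 1.20 and 1.31 in the last 2. In Sst nuclei it was 0.874, 2.38 and 1.21, the first from 7 nuclei. Within pool S40325 the striatal minus Sst difference was -1.99 over 5 constructs and within pool S40327 it was 0.90 over 9, which is the opposite direction (exact permutation p = 0.0625, the smallest possible there, and p = 0.492). Striatal minus Pvalb was -0.94 and -1.20 within these pools over 3 constructs each (exact permutation p = 0.5, smallest possible 0.25). Pvalb minus Sst was 0.53 over 4 constructs and 3.34 over 5 (exact permutation p = 0.5 and 0.0625, smallest possible 0.125 and 0.0625). Without pool S40317 striatal minus Pvalb was -0.88 and Pvalb minus Sst 1.36 (permutation adjusted p = 0.281 for both). As the median over nuclei with reads of both genes they were -1.11 and 0.62, and with sums of at least 5 nuclei -1.14 and 1.19. With the Sst class at 1000 CPM, Pvalb minus Sst was 0.78.

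**Figure D4:**
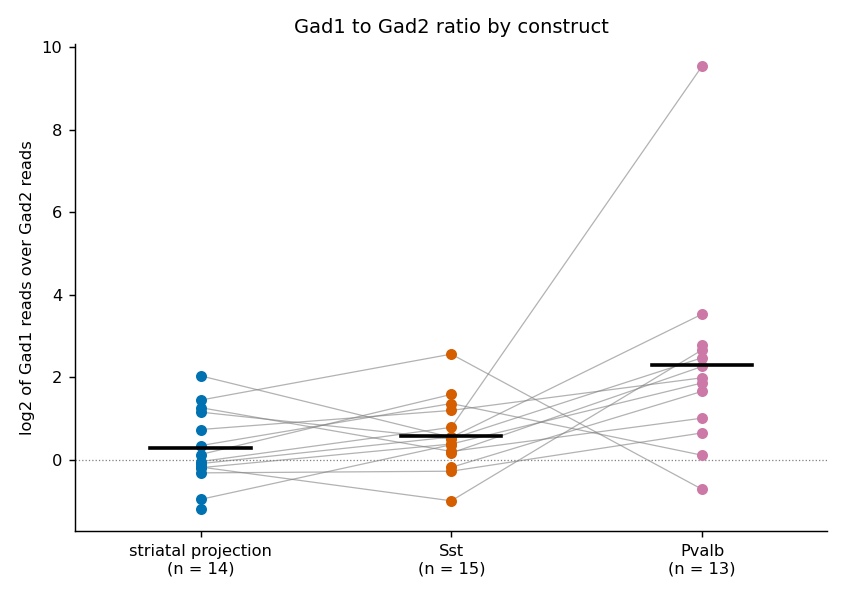
Log2 of Gad1 over Gad2 reads (0.5 added to each) per construct sum in the striatal projection, Sst and Pvalb classes, with a black line at the mean; gray lines join sums of 1 construct. The Pvalb points lie above 0 in 12 of 13 constructs, and the highest, at 9.54, has no Gad2 reads.

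Gad2, Abat, Gad1 and Slc32a1 were detected least often in the Sst nuclei with the most Sst reads. Over 17 nuclei with 100 to 1000 CPM of Sst, 52 with 1000 to 10000 and 45 above, Gad2 was found in 82.4%, 71.2% and 44.4%, and Abat in 58.8%, 53.8% and 33.3%. Gad1 was found in 64.7%, 78.8% and 57.8% and Slc32a1 in 52.9%, 57.7% and 35.6%. The pooled level of Slc32a1 went the other way, at 24.3, 42.8 and 48.5 CPM, and Slc6a11 had reads in 1 nucleus, of the top group. Nos1, which encodes neuronal nitric oxide synthase, was found in 0%, 7.69% and 95.6% of the same nuclei. Chodl was found in 0%, 3.85% and 51.1%. The top group held a median of 2768 genes in 285335 reads, against 3327 genes in 232151 reads for the lowest group, and Sst made up a median of 2.20% of its reads. These groups were cut after the values had been seen and were not tested.

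Striatal projection nuclei divide by dopamine receptor into Drd1 cells of the direct pathway and Drd2 cells of the indirect pathway. With at least 20 CPM of 1 receptor and less of the other, 104 nuclei were Drd1 and 58 Drd2, and 4 constructs had enough of both. Gad1 was at 386 ± 132 CPM in Drd2 and 292 ± 112 CPM in Drd1 sums (0.30 ± 0.41, higher in 2 of 4, adjusted p = 0.974). Gad2 was at 241 ± 92.4 and 293 ± 82.2 CPM (-0.34 ± 0.43, adjusted p = 0.966), Slc32a1 at 6.48 ± 7.47 and 10.1 ± 8.09 (-0.74 ± 1.29, adjusted p = 0.98) and Abat at 203 ± 65.98 and 138 ± 79.3 (0.39 ± 0.50, adjusted p = 0.965). Slc6a11 was at 0 in all 8 sums. edgeR called 0 of the 4 tested genes and 0.076% of all genes. DESeq2 also called 0 of the 4, but 532 genes in all.

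The position of the RNA element in the reporter transcript was compared over all kept nuclei of 12 constructs, 6 before and 6 after SYFP2-H2B, with the element as a block. In this comparison edgeR called 0 of 13620 genes (0.0%), 477 had an unadjusted p under 0.05 and DESeq2 called 83. Abat was lower with the element after in 5 of 6 elements, at 101 ± 22.1 CPM (66.6, 99.2, 127) against 157 ± 63.1 before (99.0, 138, 261), a difference of -0.51 ± 0.32 that did not pass (edgeR adjusted p = 0.9998). Gad1 was at 442 ± 294 CPM after and 542 ± 257 before (-0.38 ± 0.39) and Gad2 at 282 ± 189 and 350 ± 263 (-0.13 ± 0.38), each higher after in 3 of 6. Slc32a1 (0.44 ± 0.62) and Slc6a11 (0.65 ± 1.07) were higher after in 4 of 6.

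The classes differed in number between the positions: Sst nuclei were 20% of 260 nuclei before and 11.97% of 259 after, striatal 13.8% and 16.99%, and Aqp4 4.62% and 6.95%. In such sums over all nuclei, fewer cells of a type and less RNA per cell cannot be told apart. Within pool S40325 alone the differences of Abat and Gad1 were -2.14 and -0.69, and within pool S40327 -0.31 and -0.12. Without pool S40317 that of Gad2 was 0.11, the opposite direction.

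**Figure D5:**
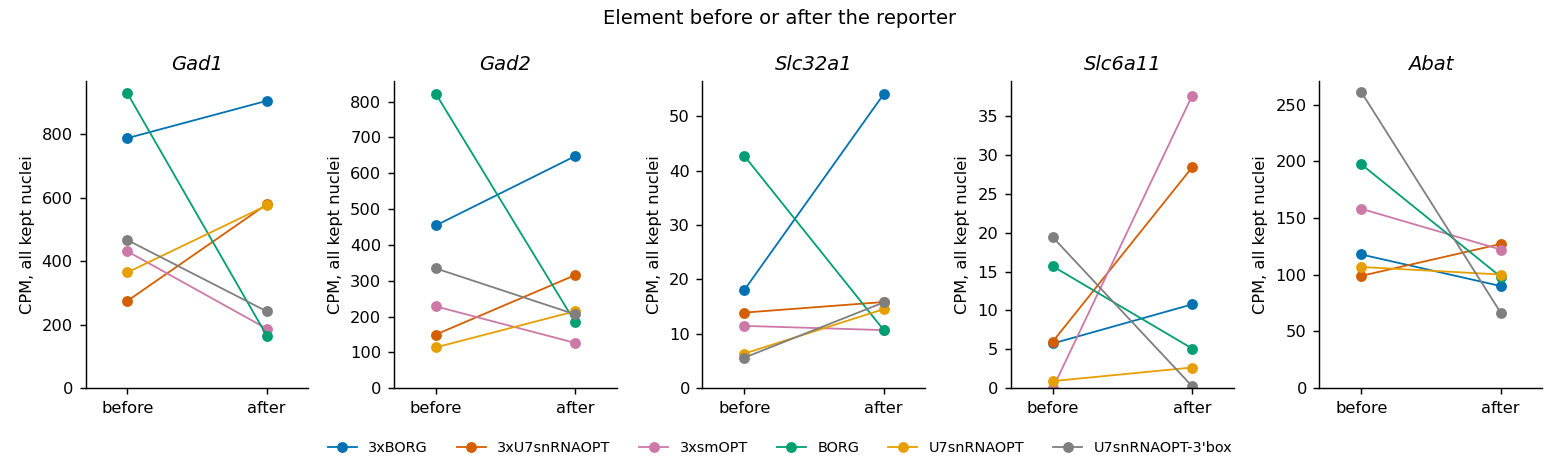
Level of each gene (CPM over all kept nuclei of a construct, linear axes from 0) with the element before or after SYFP2-H2B; lines join the 6 elements. Gad1 and Gad2 are higher after in 3 of 6 elements, and Abat is lower after in 5 of 6, none passing the test.

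Over the 70 sums of a construct and class, the genes whose log2(CPM + 1) was most like that of each member were ranked among 8458 genes with a mean of at least 20 CPM. For Gad1 these were Gad2 (Pearson r = 0.872), Dlx6 (0.805) and Rbms3 (0.754), and for Gad2 they were Gad1, Dlx6 (0.848) and Cdh13 (0.811). Slc32a1 was most like Dlx1 (0.76), Crhbp (0.731) and Nxph1 (0.721). The genes nearest to Slc6a11 were Gja1 (0.831), the main astrocyte gap junction gene, Slc7a10 (0.826) and Grin2c (0.823). Abat was nearest to Gad1 (0.625), Gad2 (0.618) and Cacna2d2 (0.615), and its r with Slc6a11 was 0.03. Sums of 1 class share cells of a type, and sums of 1 construct share libraries, so these values are descriptions.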

How the data were processed

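Reads of single-nucleus SMART-Seq v4 libraries were aligned by the authors, and the submitters' processing notes name STAR 2.7.2a and the build mm10. The deposited values are raw read counts per gene, and the counting step and annotation are not given in the sources used here. Of 2501 columns, 1597 match no sample label and were not used. Nuclei with at least 1000 genes and 10000 reads were kept and reads were summed per construct and class. All 6 classes entered 1 edgeR 4.0.16 quasi-likelihood fit (R 4.3.3, filterByExpr, TMM, construct as block, Benjamini-Hochberg threshold 0.05 over all genes). DESeq2 1.42.0 was an alternative. Ratios were compared by exact sign-flip permutation with 0.5 reads added (Python 3.11.15, scipy 1.17.1), and scripts were tested on simulated data. Named were the 5 genes, per list the 2 genes with the smallest p in each direction, and the 3 nearest genes by correlation; of the lists' genes, some of those that passed are described and others are not reported here.

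The members and lists were chosen with earlier results of these data known. Fold changes are given only where at least 3 sums of 1 side had reads, a rule chosen after seeing the data, as was the alternative of an Sst class at 1000 CPM. Other alternatives were RLE scaling, no filter, sums of at least 5 nuclei, nuclei with at least 2000 genes, doubled thresholds, no block, virus labels, fits of 2 classes, single pools and each construct left out.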

Additional observations from a re-analysis of the deposited data

Results flagged for a closer look

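In 7 of 17 groups of 4 to 10 sums, 1 sum lay far from the rest by Dixon's test. For normally distributed values chance gives this in about 1 in 20 groups. Most of these groups hold nothing but zeros apart from that sum, so that rate does not apply to them and no excess can be read from the count. In Mog sums, Gad1 was at 183 CPM in SYFP2-H2B-U7snRNAOPT and Abat at 250.3 CPM in SYFP2-H2B-BORG, with 0 in the other 5. In Aqp4 sums, Gad2 was at 107.9 CPM in SYFP2-H2B-3xU7snRNAOPT and Slc32a1 at 25.9 CPM in SYFP2-H2B-BORG, with 0 in the other 7. Over all nuclei of a construct, 3xBORG gave the highest Gad2 (648 CPM) and Slc32a1 (54.02 CPM) among the 6 elements after SYFP2-H2B, and BORG the highest Slc32a1 (42.7 CPM) among those before it.

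Nuclei outside the 6 classes also held these genes. The 117 nuclei of no class had pooled levels of 912 CPM of Gad1, 656 of Gad2, 20.6 of Slc32a1, 31.7 of Slc6a11 and 134 of Abat. The 92 nuclei in more than 1 class had 342 CPM of Gad1, 236 of Gad2, 12.7 of Slc32a1, 4.22 of Slc6a11 and 161 of Abat.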

How the results depend on the processing

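Of 454 values of single genes under other settings, 397 kept their direction and side of the threshold, 23 no longer passed, 10 newly passed and 24 changed sign. Of 640 values with 1 construct left out, 618 kept both. Samples were paired by construct or element. By replicate number, no paired analysis was possible because the numbers in the titles name single nuclei. The cause of the changes below was not tested. At this depth no difference can be given where both sides have no reads, as for Slc6a11 between Drd2 and Drd1. The glial comparisons could not be fitted within pool S40325, with at least 2000 genes or with at least 5 nuclei per sum. Comparisons are written as the first class against the second, and values of single genes are log2 differences. Counts of the 5 genes below are to be read beside the share of all genes called in the main fit. That share was 41.1% for Aqp4 and 39.6% for Mog. It was 11.1% for striatal against Sst and 11.5% against Pvalb. Against excitatory sums it was 6.87% for striatal, 6.47% for Sst and 7.88% for Pvalb.

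With DESeq2, 532 genes were called for Drd2 against Drd1, 1044 for Pvalb against Sst, 1831 for Pvalb against excitatory, 1487 for Sst against excitatory and 83 for element position, and 4 of the 5 genes for Mog. Abat was at -0.18 for striatal against Pvalb and Gad2 at -0.000542 for striatal against Sst. With RLE scaling Abat was at -0.16 for striatal against Pvalb, and 1 of the 5 genes passed for striatal against Sst. With the Sst class at 1000 CPM, Gad1 was at -0.30 for Aqp4 and 0.15 for striatal against Sst, and 0 of the 5 passed for Mog.

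Without the construct block, 13 genes were called for Drd2 against Drd1 and 604 for Pvalb against Sst. Abat was at -0.0505 and Gad2 at -0.24 for striatal against Pvalb, and Gad2 at -0.25 for striatal against Sst. Of the 5 genes 1 passed for Aqp4, 2 for Mog and 1 for striatal against Sst. By virus label the Gad1 to Gad2 log2 ratio differed by -2.15 for striatal against Pvalb and passed (permutation adjusted p = 0.0234), while Pvalb against Sst was at 0.73 (0.331) and striatal against Sst at -1.45 (0.223). There 579 genes were called for striatal against excitatory, Gad2 was at 0.57 for Drd2 against Drd1 and Slc32a1 at 0.0168 for Aqp4, and 1 of the 5 genes passed for Aqp4 (Slc6a11) and another for striatal against Sst (Slc32a1).

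With at least 2000 genes per nucleus, 444 genes were called for Pvalb against Sst, Gad2 was at 0.0566 for position, and 1 of the 5 passed for striatal against Pvalb and 1 against Sst. With only 2 classes in a fit, 3411 genes were called for Aqp4, 2490 for Mog and 1041 for striatal against Pvalb. Of the 5 genes 0 passed for Aqp4, 0 for Mog, and 1 each for striatal against Pvalb and Sst. For Aqp4 Abat was at 1.26 (edgeR adjusted p = 0.578). No Slc6a11 value is given for that fit, so Slc6a11 is not shown to have failed the test there. With at least 5 nuclei per sum, Gad1 was at 0.041 for striatal against Sst, where 1 of the 5 passed.

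Within pool S40325 the genes called were 38 for Pvalb against Sst, 86 for Pvalb against excitatory, 104 for Sst against excitatory, 457 for striatal against Pvalb, 552 against Sst and 131 against excitatory. Abat was at -0.23 and Gad2 at 0.88 for Pvalb against Sst, and Gad2 at 0.13 and Slc32a1 at -0.23 for position. Of the 5 genes 2 passed for Pvalb and 2 for Sst against excitatory. Within pool S40327 the log2 ratio differed by 0.90 for striatal against Sst. Genes called were 1237 for Aqp4, 2066 for Mog, 11 for Pvalb against Sst, 20 for Pvalb against excitatory, 56 for Sst against excitatory, 151 for striatal against Pvalb, 424 against Sst and 40 against excitatory. Abat was at -1.46 for striatal against Pvalb and -0.72 against Sst, Gad1 at -2.27 for Aqp4 and Slc32a1 at 0.38 for Pvalb against Sst. Of the 5 genes 0 passed for Aqp4, 0 for Pvalb, 1 for Sst and 1 for striatal against excitatory.

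Without pool S40317 the log2 ratio differed by 0.44 for striatal against Sst. Genes called were 2890 for Aqp4, 3565 for Mog, 137 for Pvalb against Sst, 470 for Pvalb against excitatory, 403 for Sst against excitatory and 426 for striatal against excitatory. Abat was at -0.0835 for striatal against Pvalb, Gad1 at -1.996 for Aqp4 and 0.0747 for striatal against Sst, and Gad2 at 0.11 for position. Of the 5 genes 0 passed for Aqp4, 2 for Mog and 2 for Sst against excitatory.

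With each construct left out in turn, 1 to 2 of the 5 genes passed for Aqp4 and 0 to 2 for Mog. Gad1 ran from -0.50 to 1.01 and Slc32a1 from -6.22 to 0.61 for Aqp4, and Gad1 from -9.33 to 0.23 for Mog. Abat ran from -0.15 to 0.27 for striatal against Pvalb, Slc32a1 from -0.52 to 0.0193 for Pvalb against Sst, and Slc32a1 from -1.69 to 0.13 and Gad1 from -0.16 to 0.58 for Drd2 against Drd1. For position Slc6a11 ran from -0.21 to 1.55 and Gad2 from -0.37 to 0.22. The log2 ratio ran from -2.30 to -1.13 for striatal against Pvalb and from 1.09 to 2.19 for Pvalb against Sst.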

Other observations

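Among the 117 nuclei of no class, 35 had at least 20 CPM of Adarb2, a marker of interneurons from the caudal ganglionic eminence. Gad1 had reads in 31 of these and Gad2 in 28. Their pooled levels were 2116 CPM of Gad1, 1532 of Gad2, 49.01 of Slc32a1 and 245 of Abat, with 1.38 Gad1 reads to each Gad2 read. Another 28 nuclei of no class had at least 20 CPM of Gja1, an astrocyte gap junction gene, and 10 of them had Slc6a11 reads.

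The 38 nuclei that met both the striatal and the Sst rule held Gad1 at 347, Gad2 at 377, Slc32a1 at 24.4 and Abat at 175 CPM. Lhx6 had reads in 44.7% and Nos1 in 28.9% of them, and the projection neuron genes Ppp1r1b in 36.8% and Drd1 in 23.7%. Whether these are single nuclei or pairs was not tested.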
